A study of Mus musculus with 4 samples.

Results

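Gene expression was compared between both kidney arrays from mice with glomerulonephritis (GN) and both arrays from saline-injected mice, gene by gene, so that a difference counted only where it held against either saline array. For each gene the gap was taken as the lower GN array minus the higher saline array where GN was higher, and as the lower saline array minus the higher GN array where GN was lower. The gap is the smallest of the 4 possible differences between a GN and a saline array, on the log2 scale. Of 12394 genes with a named probe set, 8207 passed a filter on mean signal, the 40th percentile of all probe sets or 6.27 on the log2 scale, and were compared, with 1 probe set per gene. On this measure 46 genes were at least 2-fold higher on both GN arrays (0.56% of the 8207) and none was at least 2-fold lower (0%). Antibody chain, macrophage, C1q complement, chemokine and interferon-induced transcripts made up most of the 46.

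The series consists of 4 arrays of whole kidney RNA from C57BL/6 mice, labelled male and aged 17 weeks, with 1 array in each of 4 groups. In GN+Water mice, horse spleen apoferritin was injected intraperitoneally at 10 mg on 5 days of each week, and lipopolysaccharide from Salmonella minnesota at 100 µg on 3 occasions weekly. GN+Captopril mice received the same injections and drank captopril, an inhibitor of angiotensin converting enzyme, at 100 mg/kg/day. Saline+Water and Saline+Captopril mice had 0.15 M NaCl injected instead, without and with that dose of captopril. Injections began at about 8 weeks of age and ran for 6 weeks, and kidneys were taken after 9 weeks. The treatment label gives 9 weeks of treatment, and the difference from 6 weeks was not resolved. Each group had 6 mice, and the labels do not say whether an array carried 1 mouse or a pool. Lipopolysaccharide was given to both GN groups and to neither saline group, so its own effect and that of apoferritin cannot be told apart. The 2 arrays of a side also differ in captopril, so the spread between them holds the drug, the animals and the labelling together.

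Apoferritin is a foreign protein, and repeated injection provokes antibodies that form immune complexes with it. Such complexes lodge in the glomerulus, bind C1q to start the classical complement pathway, and engage Fc receptors on macrophages. Cytokines released in this setting, among them interferons, induce chemokines, guanylate-binding proteins, immunity-related GTPases and the genes of antigen presentation. In RNA of a whole kidney, more cells of a type and more RNA per cell cannot be told apart.

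Some arrays stood apart from their labels or from the rest. The array labelled GN+Water carried Xist, the transcript of the inactive X chromosome, at 8.97 against 5.02 to 5.21 elsewhere, and the Y-linked Eif2s3y and Uty at 3.43 and 4.27 against 8.02 to 8.29 and 6.30 to 6.34, which goes against its male label. Those levels were near background, meaning at or under the 90th percentile of the 27 negative-control probe sets of the array. Kdm5d, also Y-linked, was near background on this array and on Saline+Water, at 3.52 and 4.63, and was at 5.69 and 5.64 on the captopril arrays. It is written as "the array labelled GN+Water" for that reason. Spike-in control probe sets had a median of 10.8 on Saline+Water and of 7.46 to 7.89 on the other arrays, and Saline+Water correlated with them at 0.945 to 0.966 against 0.982 to 0.994 among those. The part of either in the results was not tested beyond leaving each array out. Fewer arrays can only widen a gap, so every one of the 46 genes kept its gap without either of these arrays, and both counts were 51. The kidney label was borne out by its tubule markers: all 54 proximal tubule genes on the array passed the filter, with array medians of 11.8 to 12.1.

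GN was higher by any size on both arrays for 1321 genes (16.1%) and lower for 1203 (14.7%), and the arrays overlapped for 5683 (69.2%). This even split depended on the filter and the scaling. A filter at the 20th percentile gave 1555 higher and 2075 lower, and no filter 1653 and 2808. Median centring gave 984 higher and 2181 lower, quantile normalisation 990 and 2158, and cyclic loess 1456 and 1515. The sides parted with size. At 1.5-fold 101 genes were higher (1.23%) and 1 was lower (0.0122%), and at 3-fold 17 were higher (0.207%) and none lower (0%). The median over all genes of mean GN minus mean saline was 0.00 on the log2 scale.

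**Figure D1:**
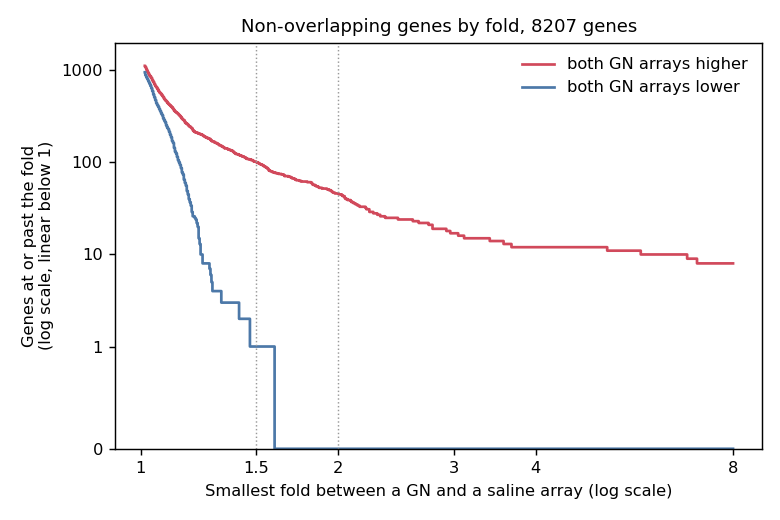
The plot of non-overlapping genes by fold gives, on the x axis (log scale), the smallest fold between a GN and a saline array and, on the y axis (log scale, linear below 1), the number of the 8207 genes at or past it, in red for GN higher and blue for GN lower. The curves lie close together at small folds and part before 1.5-fold, where 101 genes were higher and 1 was lower, and at 2-fold the counts were 46 and 0.

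A test with the spread between arrays called no gene. The limma fit of 2 GN against 2 saline arrays had 2 residual degrees of freedom and gave a lowest Benjamini-Hochberg adjusted p of 0.753 over 8207 genes, with 0 genes under 0.05 in either direction. At an unadjusted limma p under 0.05, 166 genes were higher (2.02%) and 10 lower (0.122%), among them all 46 of the 2-fold set. The 46 were picked on these same values, so their small p-values add no support. An exact two-sided permutation test of 2 against 2 arrays cannot go below 0.333. The gap therefore describes these 4 arrays, and "higher" and "lower" below mean that the arrays of the sides did not overlap.

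The mean difference selected many more genes than the gap. Mean GN exceeded mean saline at least 2-fold for 224 genes (2.73%), of which 187 did not overlap and 46 kept a 2-fold gap. It was at least 2-fold lower for 35 genes (0.426%), of which 10 did not overlap and none kept a 2-fold gap. Without the GN+Captopril array, 30 of the 35 did. Among the 4 pairs behind the gap, the array labelled GN+Water exceeded Saline+Water at least 2-fold for 849 genes (10.3%) and Saline+Captopril for 205 (2.5%), and GN+Captopril exceeded Saline+Water for 640 (7.8%) and Saline+Captopril for 59 (0.719%). In the same order, 363 (4.42%), 92 (1.12%), 171 (2.08%) and 2 (0.0244%) genes were lower. These pairs share arrays. The pair of captopril arrays had the fewest genes in both directions, and GN+Captopril was the lower GN array for 43 of the 46 genes. Saline+Captopril was the higher saline array for 31 of the 46.

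Antibody transcripts had the widest gaps. In the pairs of values that follow, on the log2 scale, the array on water comes first and the array on captopril second. Ighm, the heavy chain of IgM, was at 6.94 and 7.29 on the saline arrays and at 13.65 and 11.96 on the GN arrays, a gap of 4.67 (25.4-fold). Igkv8-30, a kappa light chain variable segment, was at 6.06 and 6.05 against 12.54 and 11.09, the widest gap of the 8207 genes at 5.03 (32.8-fold). Jchain, which joins IgM and IgA units into polymers, was at 4.41 and 6.02 against 12.46 and 10.45, a gap of 4.43 (21.5-fold), with Saline+Water near background. For each of these, both GN arrays lay far above both saline arrays, and GN+Captopril was the lower GN array. Iglv1, a lambda variable segment, was at 5.44 and 5.97 against 12.46 and 10.41 (gap 4.44), and Ighg3, the IgG3 heavy chain, at 6.63 and 6.52 against 12.65 and 10.07 (gap 3.44). Igk and 3 more kappa variable segments had gaps of 1.57 to 3.53. Mean GN minus mean saline was 5.69 ± 0.63 for Ighm and 5.09 ± 1.01 for Igk (moderated SE of the limma fit, n = 2 arrays a side). The moderated SE draws each gene's spread toward that of all genes, so it is not the spread of these arrays alone.

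Not every antibody or plasma cell probe set followed. Of 10 measured genes of the list of immunoglobulin and plasma cell genes, 5 were at least 2-fold higher, 7 were higher by any size and none was lower. Beside these and the list counts below, 16.1% of all genes were higher by any size and 14.7% lower. At least 2-fold higher were 0.56% of all genes, and at least 1.5-fold higher 1.23%. Iglv1, Jchain and Igk had both saline arrays under the filter cut of 6.27 and passed it only through their GN arrays. The counts of the list therefore describe its measured members only. Sdc1, the plasma cell surface proteoglycan syndecan-1, was at 6.22 and 6.79 against 7.77 and 7.20, a gap of 0.41. Xbp1, a transcription factor of secretory cells, had a gap of 0.23. Igha, the IgA heavy chain, was at 7.59 and 7.41 against 8.15 and 7.34, and Cd79b, a subunit of the B cell receptor, at 6.45 and 5.67 against 7.13 and 6.21, so that the sides overlapped for both. Of the probe sets of one symbol, 8 of 11 lay above saline on both GN arrays for Ighm, 3 of 4 for Igk, 1 of 4 for Ighg3 and 1 of 2 for Iglv1. Antibody genes share long stretches of sequence, so the identity of each chain is uncertain. The summed linear level of the list was 3162 and 3578 on the saline arrays and 37939 and 12317 on the GN arrays.

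**Figure D2:**
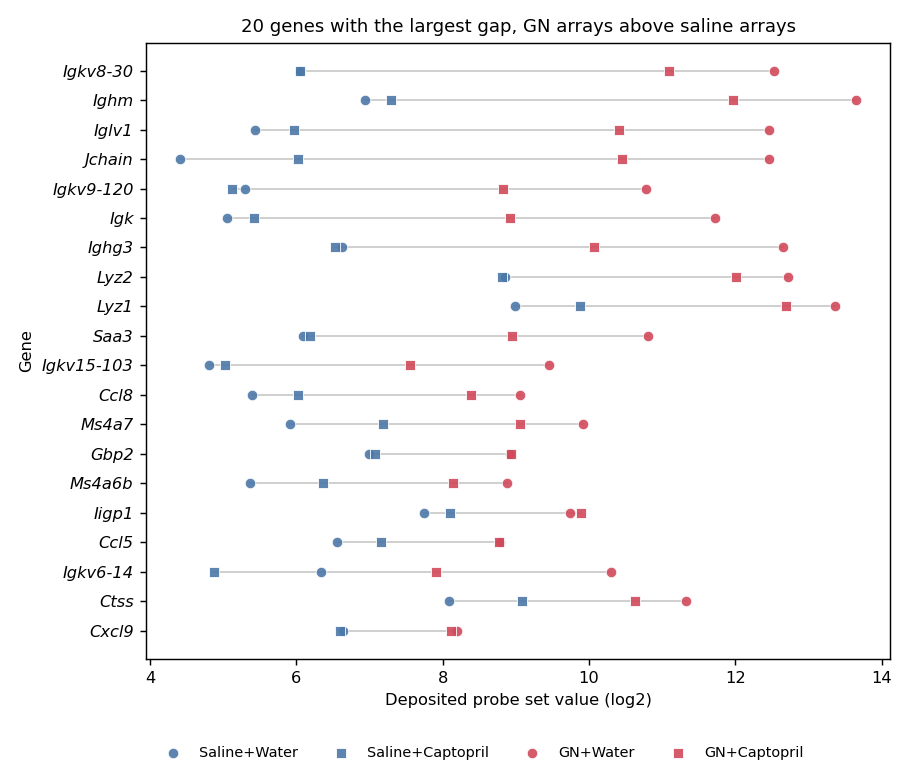
The plot of the 20 widest gaps with GN higher gives the deposited value (log2) on each of the 4 arrays, with saline arrays in blue, GN arrays in red, water as circles and captopril as squares. For Igkv8-30 at the top the saline arrays lie at 6.06 and 6.05 and the GN arrays at 12.54 and 11.09, and for Gbp2 and Cxcl9 both GN arrays nearly coincide.

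Macrophage transcripts gave the largest group. Of 40 measured genes of the macrophage and dendritic cell list, 14 were at least 2-fold and 26 at least 1.5-fold higher on both GN arrays, 36 were higher by any size and none was lower. Outside the list, the macrophage surface protein Siglec1 was lower, at 6.84 and 6.64 against 6.38 and 6.14 (gap -0.26). Of its 3 probe sets, 2 lay below saline. The median of mean GN minus mean saline over the 40 was 1.34, beside 0.00 over all genes. A gene can pass the mean filter through its GN arrays alone, so these counts describe the measured members. Lyz2, the lysozyme of macrophages, was at 8.86 and 8.81 on the saline arrays and at 12.72 and 12.01 on the GN arrays (gap 3.15, 8.86-fold). Lyz1, a near-identical copy whose probes may share its signal, was at 8.99 and 9.88 against 13.36 and 12.70 (gap 2.82). For both, the sides were separated by more than either side's own spread.

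Ctss, cathepsin S, which trims the invariant chain in antigen-presenting cells, was at 8.08 and 9.08 against 11.32 and 10.63 (gap 1.55). Ms4a7, a membrane protein of macrophages, was at 5.91 and 7.18 against 9.92 and 9.06 (gap 1.88). Adgre1, a surface antigen that defines mouse macrophages, was at 7.26 and 7.20 against 9.43 and 8.41 (gap 1.16). Saline+Captopril exceeded Saline+Water for Ms4a7 and Ctss, which narrows their gaps, whereas the saline arrays nearly coincided for Adgre1. The signalling chain Tyrobp, the Fc receptor Fcgr3, the oxidase subunit Cybb, the integrin Itgb2, the actin-binding Aif1 and Coro1a, the pore protein Mpeg1 and the surface proteins Cd52 and Cd53 had gaps of 1.03 to 1.46. Smaller gaps belonged to Ptprc (CD45, at 5.98 and 7.71 against 9.43 and 8.67, gap 0.96), Fcer1g (gap 0.97), Cd14 (0.80), Mrc1 (0.77) and Cx3cr1 (0.59). Cd68, a lysosomal marker of macrophages, had a gap of 0.53 and Csf1r, the receptor for their growth factor, one of 0.21, both under 1.5-fold.

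Other blood cell lineages were less represented past the filter. Of 22 lymphocyte genes on the array, 8 passed it, and 3 of these were at least 1.5-fold higher: Ccl5, a chemokine of T cells and macrophages, Nkg7, a granule protein of killer cells, and Arhgdib. By any size 6 of the 8 were higher, 2 overlapped and none was lower. Cd3d, a chain of the T cell receptor complex, was at 5.96 and 6.08 against 7.01 and 6.43 (gap 0.35), and Cd4 overlapped. Of 15 neutrophil genes on the array 3 passed, and none of these reached 1.5-fold, while 2 were higher by any size and 1 overlapped. Below the filter, Fpr2, a neutrophil and monocyte receptor for formylated peptides, was at 4.88 and 4.57 against 7.77 and 7.27 (gap 2.39). Lcn2, a neutrophil and injured-tubule protein, was at 5.74 and 6.43 against 8.61 and 6.83, a gap of 0.41. Its value on the array labelled GN+Water stood well above the other arrays, and GN+Captopril lay close to Saline+Captopril.

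Of 15 measured complement genes, 8 were higher by any size, 7 overlapped and none was lower. The chains of C1q, C1qa, C1qb and C1qc, which recognise antibody in immune complexes, were each at least 2-fold higher. C1qb was at 8.23 and 8.58 on the saline arrays and at 10.96 and 10.06 on the GN arrays (gap 1.48), C1qc at 8.06 and 7.82 against 10.23 and 9.47 (gap 1.41), and C1qa at 8.89 and 8.75 against 11.09 and 10.05 (gap 1.16). The sides did not overlap for any chain, and GN+Captopril was the lower GN array each time. Serping1, the C1 inhibitor, had a gap of 0.60 and C3ar1, the receptor for the C3a fragment, one of 0.63. These 5 reached 1.5-fold (4 genes did under median centring or quantile normalisation, and 9 without GN+Captopril). The C1 proteases C1ra and C1s1 and the regulator Cfi had gaps of 0.40, 0.35 and 0.19. C2, Cfb, Cd55, Cd59a, Cr1l, Masp1 and C8a overlapped. C3 is in the list but was not among the 15 measured genes, so these counts say nothing of it.

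Chemokines were led by ligands of monocytes and T cells. Ccl8, a ligand of monocyte receptors, was at 5.39 and 6.03 on the saline arrays and at 9.05 and 8.39 on the GN arrays (gap 2.36, 5.15-fold). Ccl5 was at 6.55 and 7.15 against 8.78 and 8.76 (gap 1.61). Ccl6 was at 7.18 and 6.84 against 9.55 and 8.48 (gap 1.30). Ccl8 and Ccl6 were lower on GN+Captopril than on the other GN array, and Ccl5 was level on both. Cxcl9 and Cxcl10, interferon-induced ligands of the T cell receptor Cxcr3, had gaps of 1.48 and 1.38. Cxcl13, which attracts B cells, was at 6.38 and 6.64 against 9.02 and 7.40 (gap 0.76), and Ccl2, a monocyte chemokine, had a gap of 0.14. The adhesion molecules Vcam1 and Icam1 had gaps of 0.70 and 0.65. Of 23 measured genes of the list, 9 reached 1.5-fold (8 under quantile normalisation), 16 were higher by any size and Tnf and Il4ra were lower, with gaps of -0.04 and -0.02. Cxcl17, a chemokine outside the list, was lower, at 7.13 and 7.06 against 6.76 and 6.46 (gap -0.30).

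Of 33 measured genes of the interferon list, 27 were higher on both GN arrays by any size and none was lower, and 11 reached 1.5-fold. Gbp2, a guanylate-binding protein of cell-autonomous defence, was at 6.99 and 7.08 on the saline arrays and at 8.91 and 8.93 on the GN arrays (gap 1.84, 3.57-fold). Iigp1, an immunity-related GTPase, was at 7.74 and 8.11 against 9.74 and 9.90 (gap 1.64). Cxcl9 was at 6.64 and 6.60 against 8.19 and 8.12, and Cxcl10 at 5.60 and 6.73 against 8.12 and 8.11. In each of these 4 the GN arrays lay within 0.2 of each other, as they did for 6 of the 11. Gbp6 was at 6.16 and 6.36 against 7.41 and 8.10 (gap 1.05) and Irgm2 at 7.52 and 7.56 against 8.43 and 8.74 (gap 0.87), with GN+Captopril the higher array for both. Gbp3 was at 6.40 and 6.76 against 9.59 and 7.37 (gap 0.61), far higher on the array labelled GN+Water, and Rtp4, Ifi27l2a and Parp14 were higher there too, with gaps of 0.65, 0.87 and 0.61. Guanylate-binding protein genes are close paralogs, and probe sets can take signal from more than 1 of them. The count at 1.5-fold was 10 under median centring, 9 under quantile normalisation, 21 without GN+Captopril and 18 without Saline+Captopril.

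Of 17 measured antigen presentation genes, 8 reached 1.5-fold, 14 were higher by any size and none was lower. H2-Ab1, the beta chain of a class II molecule, was at 10.09 and 10.40 on the saline arrays and at 11.55 and 11.43 on the GN arrays (gap 1.03, 2.04-fold). H2-Aa was at 11.14 and 11.32 against 12.55 and 12.24 (gap 0.92), and Cd74, the invariant chain, at 11.43 and 11.20 against 12.42 and 12.31 (gap 0.88). H2-Eb1 and the loading factor H2-DMa had gaps of 0.90 and 0.86. For each of these class II genes the arrays of a side lay closer together than the sides did. B2m, the light chain of class I, was at 11.79 and 12.56 against 13.24 and 13.28 (gap 0.69), with saline arrays farther apart than the gap, and the immunoproteasome subunits Psmb9 and Psmb8 had gaps of 0.95 and 0.79. H2-K1 and H2-D1, class I heavy chains, had gaps of 0.42 and 0.51, and Tap1, a peptide transporter, overlapped.

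The promoters of these genes were read because members of the interferon and presentation lists were higher together, and are printed to show the letters behind the match counts. RefSeq promoter windows of GRCm38.p6 were matched to 70 of the 101 genes, and the 250 bases before each gene's start were searched on both strands for the interferon-stimulated response element (ISRE), taken as GAAA, any 2 bases and GAAA, and for the STAT site GAS, written TTCNNNGAA. The ISRE letters were found in 10 of the 70 genes (14.3%), in 214 of the 6651 compared genes with a window (3.22%) and in 2.98% of all 32851 windows. Among interferon list members that were at least 1.5-fold higher and had a window, they were in 4 of 7. Among such members of the presentation list they were in 1 of 6, of the macrophage list in 4 of 20 and of the complement list in 0 of 3. The GAS letters were found in 7 of the 70 (10%) against 6.83% of the compared genes, and in none of the 27 genes of the 2-fold set with a window (0%), of which 6 held the ISRE letters (22.2%). A match describes letters only, and binding was not measured. The windows below carry the ISRE match in capitals, except for Icam1, where the capitals mark the GAS match.
Gbp2, chr3:142620413-142620662, plus strand: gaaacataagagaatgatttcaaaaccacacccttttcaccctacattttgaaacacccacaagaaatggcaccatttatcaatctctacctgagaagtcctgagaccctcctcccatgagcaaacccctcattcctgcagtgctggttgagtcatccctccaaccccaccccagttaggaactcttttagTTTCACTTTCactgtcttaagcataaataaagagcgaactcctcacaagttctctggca
Cxcl10, chr5:92348890-92349139, minus strand: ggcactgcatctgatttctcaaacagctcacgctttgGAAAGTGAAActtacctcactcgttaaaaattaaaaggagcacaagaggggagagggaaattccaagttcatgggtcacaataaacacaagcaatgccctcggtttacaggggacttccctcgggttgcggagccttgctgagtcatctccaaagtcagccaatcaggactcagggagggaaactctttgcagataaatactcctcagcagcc
Irgm2, chr11:58214727-58214976, plus strand: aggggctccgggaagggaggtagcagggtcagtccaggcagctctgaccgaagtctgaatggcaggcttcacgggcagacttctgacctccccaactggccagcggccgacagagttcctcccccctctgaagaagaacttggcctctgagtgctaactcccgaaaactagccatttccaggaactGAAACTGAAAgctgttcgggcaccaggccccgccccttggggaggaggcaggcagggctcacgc
Ctss, chr3:95526536-95526785, plus strand: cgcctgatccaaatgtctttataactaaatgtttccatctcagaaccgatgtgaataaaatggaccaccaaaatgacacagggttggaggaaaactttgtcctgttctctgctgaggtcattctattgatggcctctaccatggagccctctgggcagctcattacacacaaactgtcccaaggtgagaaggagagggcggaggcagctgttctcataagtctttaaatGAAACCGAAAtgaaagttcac
B2m, chr2:122147437-122147686, plus strand: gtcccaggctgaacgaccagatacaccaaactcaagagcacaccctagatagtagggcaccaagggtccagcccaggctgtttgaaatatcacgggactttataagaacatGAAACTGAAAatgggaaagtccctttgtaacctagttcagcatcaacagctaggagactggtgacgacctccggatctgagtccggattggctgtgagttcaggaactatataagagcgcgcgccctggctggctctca
Saa3, chr7:46715677-46715926, minus strand: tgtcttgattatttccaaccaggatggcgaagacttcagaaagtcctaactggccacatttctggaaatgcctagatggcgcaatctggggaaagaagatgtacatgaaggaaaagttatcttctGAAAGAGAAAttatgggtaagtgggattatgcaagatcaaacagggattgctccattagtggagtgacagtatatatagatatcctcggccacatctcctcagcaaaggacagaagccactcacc
Icam1, chr9:21015690-21015939, plus strand: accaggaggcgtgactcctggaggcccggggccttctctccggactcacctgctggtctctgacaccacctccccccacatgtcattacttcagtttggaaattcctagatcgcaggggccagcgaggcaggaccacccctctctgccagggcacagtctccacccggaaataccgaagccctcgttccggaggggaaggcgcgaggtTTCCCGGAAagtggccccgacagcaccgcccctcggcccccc
The match begins 59 bases before the start of Gbp2, 64 before that of Irgm2, 21 before that of Ctss and 139 before that of B2m. In Cxcl10 it lies 213 and in Saa3 125 bases before the start, and the GAS match of Icam1 lies 42 bases before it. A further motif, that of the nuclear factor kappaB (GGG, any 2 bases and TTTCC), was in 5 of the 70 genes (7.14%) and 1 of the 27 (3.7%) against 1.73% of the compared genes, and the core letters of the myeloid factor PU.1 (GAGGAA) were in 24 of the 70 (34.3%) and 8 of the 27 (29.6%) against 25.5%.

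Tubular injury genes were higher by any size for 18 of 32 measured members, and 8 of these reached 1.5-fold. Saa3, an acute phase apolipoprotein made by macrophages and epithelium, was at 6.09 and 6.18 on the saline arrays and at 10.80 and 8.95 on the GN arrays (gap 2.77, 6.81-fold). Slpi, a secreted protease inhibitor, was at 7.37 and 7.96 against 10.09 and 8.98 (gap 1.02). Cp, ceruloplasmin, the copper-binding ferroxidase of plasma, was at 8.78 and 9.30 against 11.23 and 9.95 (gap 0.65). Each was highest on the array labelled GN+Water, by 1.85 for Saa3 over GN+Captopril. The intermediate filament Vim, the calcium-binding S100a6, Anxa1, Tmsb10 and Igfbp1 had gaps of 0.64 to 0.78. Havcr1, the kidney injury molecule of proximal tubules, was at 6.07 and 6.14 against 7.08 and 6.30, a gap of 0.16. In the injury list 1 gene, Pigr, was lower, by 0.05. Its count at 1.5-fold was 19 without GN+Captopril and 12 without Saline+Captopril. Saa3 is in the acute phase list and not in the injury list, and Cp is in both. Of 11 measured acute phase genes, 5 were higher by any size, 6 overlapped and none was lower, and 2, Saa3 and Cp, reached 1.5-fold. Lbp and Hp of that list had gaps of 0.48 and 0.47.

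Matrix genes were often higher but by little. Of 51 measured genes of the matrix and fibrosis list, 28 were higher by any size and 2 lower, and 1 reached 1.5-fold. That gene, Col3a1, the type III collagen chain, was at 8.74 and 8.91 on the saline arrays and at 10.62 and 9.69 on the GN arrays (gap 0.78). The matrix protease Mmp14, the proteoglycan Dcn and the inhibitor Timp2 had gaps of 0.58, 0.46 and 0.42. Col1a2, a type I collagen chain, had a gap of 0.36, Fn1, fibronectin, one of 0.15, and Col1a1 overlapped, at 7.99 and 7.24 against 8.19 and 7.19. With GN+Captopril left out, the count at 1.5-fold was 23, and with the array labelled GN+Water left out it was 1. GN+Captopril was the lower GN array for each matrix gene named here.

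Of the 46 genes, 10 were neither antibody chains nor in any list. Ms4a6b and Ms4a6c, membrane proteins of the Ms4a7 family, had gaps of 1.77 and 1.21. Apoe, the apolipoprotein of lipid-laden macrophages and other cells, was at 10.08 and 10.44 on the saline arrays and at 12.62 and 11.53 on the GN arrays (gap 1.09). S100a4, a calcium-binding protein of motile cells, Hcls1, a cortactin-like protein of blood cells, Evi2a and AW112010 had gaps of 1.10 to 1.24. Gbp6 is described above. Fscn1, an actin bundler, was at 5.73 and 7.45 against 8.51 and 8.47, and only 1 of its 4 probe sets lay above saline while 1 lay below. Aplnr, the apelin receptor of endothelium, was at 5.23 and 7.32 against 8.89 and 8.32. Aplnr, at 2.003-fold, was the gene just inside the 2-fold threshold, and Ifi47, an interferon-induced GTPase, was just outside it with a gap of 0.98, followed by Cyp1b1, Fcer1g, Ptprc and Psmb9.

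**Figure D3:**
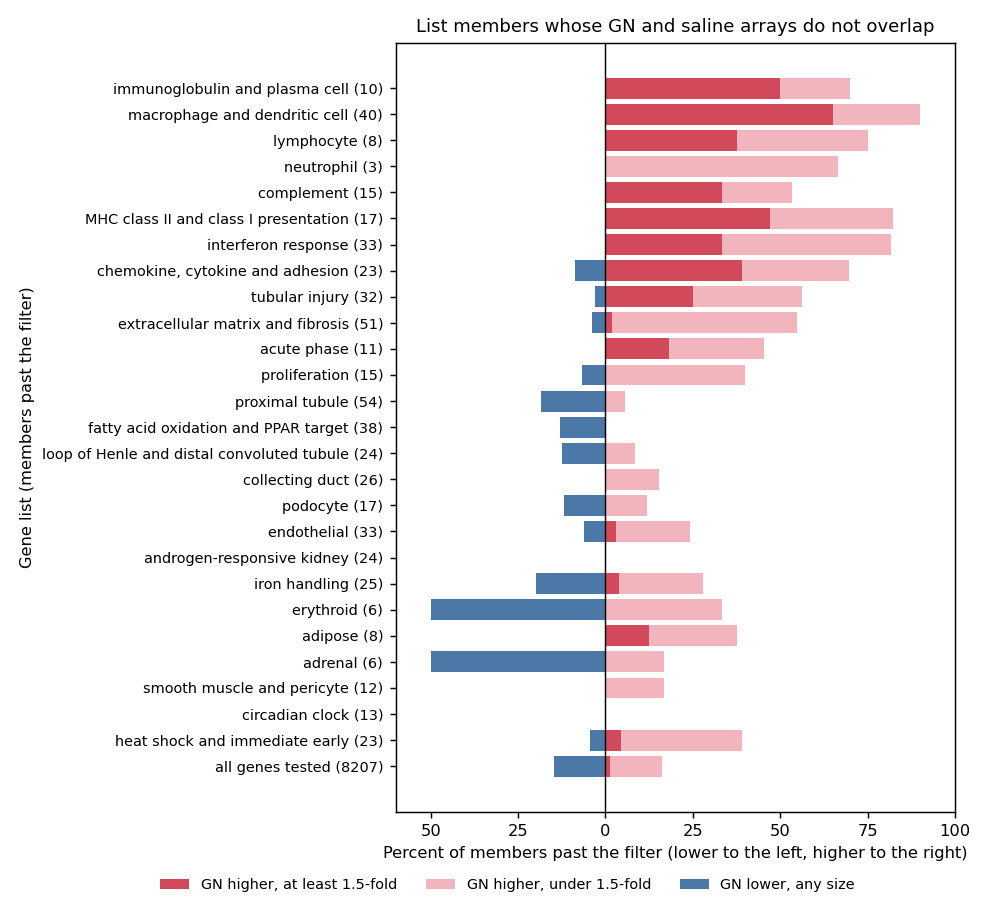
The plot of list members gives, for each gene list, the percent of its members past the filter whose arrays did not overlap, in red for GN higher by at least 1.5-fold, in pink for GN higher by less and in blue, to the left, for GN lower by any size. The macrophage list has 26 of 40 members in red, no list has a member lower by 1.5-fold, and the lowest bar gives all 8207 genes, of which 101 are in red.

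Genes that were lower on both GN arrays had small gaps. Bcl6, a transcriptional repressor of lymphoid and metabolic genes, was the 1 gene past 1.5-fold, at 8.33 and 8.83 on the saline arrays and at 7.10 and 7.66 on the GN arrays (gap -0.68), and both its probe sets were lower. Its mean difference was -1.20 ± 0.30 (moderated SE of the limma fit, n = 2 arrays a side) with a limma adjusted p of 0.753. Srebf1, the transcription factor that drives fatty acid synthesis, was at 8.43 and 8.55 against 7.83 and 7.87 (gap -0.55). It passed 1.5-fold under median centring, quantile normalisation and cyclic loess, with gaps of -0.60, -0.67 and -0.60. Cyp2d12, a cytochrome P450, was at 10.06 and 10.36 against 8.57 and 9.70 (gap -0.36). Lss, lanosterol synthase of the cholesterol pathway, was at 7.93 and 7.89 against 7.54 and 7.54 (gap -0.35), but only 1 of its 3 probe sets lay below saline. Sugp2, a splicing-related protein, and Krt81, a hair keratin, had gaps of -0.50 and -0.41, and the remaining genes of the 15 lowest lay between -0.30 and -0.36.

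**Figure D4:**
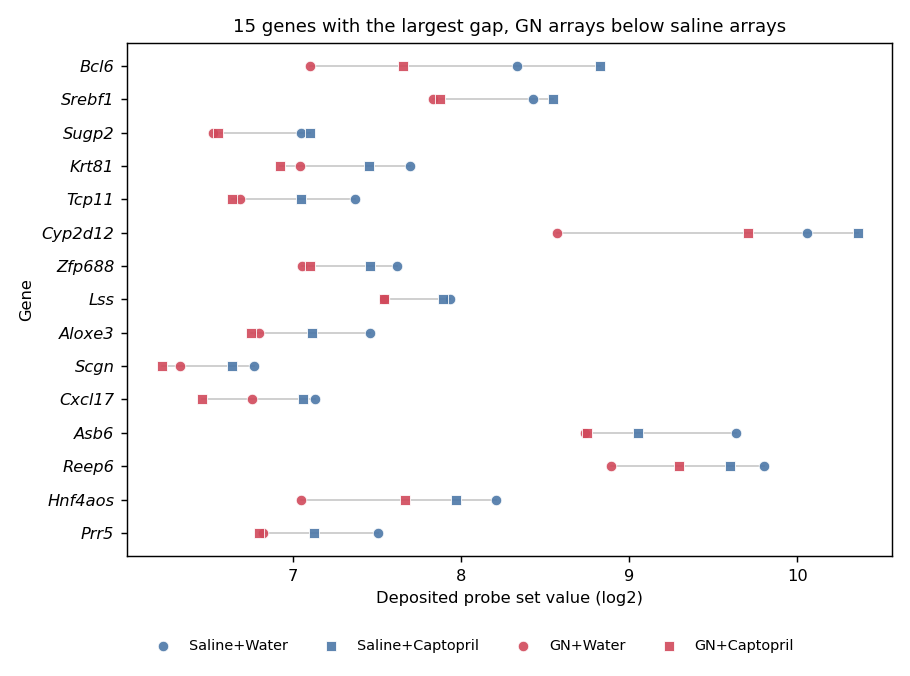
The plot of the 15 widest gaps with GN lower uses the same axis (log2), colours and symbols as the plot of the widest gaps with GN higher. The arrays of Srebf1 form tight pairs at 8.43 and 8.55 and at 7.83 and 7.87, while for Cyp2d12 and Hnf4aos the array labelled GN+Water lies well to the left of GN+Captopril.

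Transport and metabolism genes of the tubule had small gaps. Of 54 proximal tubule genes, 10 were lower and 3 higher by any size, beside 14.7% and 16.1% of all genes, and 41 overlapped. Fmo1, a flavin monooxygenase, was at 12.68 and 12.22 on the saline arrays and at 11.95 and 11.97 on the GN arrays (gap -0.25). G6pc, the glucose-releasing phosphatase, and Slc13a3, a dicarboxylate transporter, each had a gap of -0.17. Of 38 fatty acid oxidation genes, 5 were lower and 33 overlapped, with Decr1 and Eci1, enzymes for unsaturated fatty acids, at -0.20 and -0.17. The lower count was 9 under median centring, 8 under quantile normalisation and 9, with 1 higher, under cyclic loess, where 26.6%, 26.3% and 18.5% of all genes were lower. None of these gaps reached 1.5-fold. Podocyte genes had 2 higher and 2 lower of 17 (1 and 3 under each other scaling) and collecting duct genes 4 higher of 26. All 24 androgen-responsive kidney genes overlapped, since the array labelled GN+Water was low for many of them and GN+Captopril was not. Acsm3, one of these, was at 12.47 and 12.50 against 6.20 and 12.57.

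Iron handling genes were read because apoferritin is the protein shell of ferritin. Of 25 measured genes, 7 were higher and 5 lower by any size, beside 16.1% and 14.7% of all genes. These counts were 6 and 6 under median centring, 5 and 6 under quantile normalisation and 8 and 4 under cyclic loess. Tfrc, the transferrin receptor, was at 10.39 and 10.32 on the saline arrays and at 10.01 and 10.13 on the GN arrays (gap -0.19), and Tfr2, its homologue, had a gap of -0.22. Fth1, the ferritin heavy chain, and Hmox1, haem oxygenase, overlapped. Cp, described above, was the 1 member past 1.5-fold. Ace, the target of captopril, was at 9.48 and 8.79 against 8.30 and 8.82, and Agt, angiotensinogen, at 9.51 and 9.25 against 9.40 and 9.07, so both overlapped.

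Markers of tissue that can adhere to a kidney were read beside these results. Of 8 measured adipose genes, 3 were higher by any size, and Fabp4, a fatty acid carrier of fat cells and of kidney endothelium, reached 1.5-fold at 10.34 and 10.58 against 11.23 and 11.31 (gap 0.65). Adipoq, the fat cell hormone adiponectin, was at 6.24 and 7.77 against 8.25 and 8.92 (gap 0.48). The summed linear level of the adipose list was 13357 and 17802 on the saline arrays and 13717 and 18942 on the GN arrays and so was higher on both arrays with captopril than on both without. Of 6 adrenal genes 1 was higher and 3 lower, with gaps of -0.11 to 0.07. Of 33 endothelial genes 8 were higher, 2 lower and 23 overlapped, with Cd34 and Pecam1 at gaps of 0.47 and 0.37. Beside these counts, 16.1% of all genes were higher by any size and 14.7% lower. The part of these tissues in the results was not tested.

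The GN arrays did not differ alike for all groups of higher genes. The values that follow are differences, the array labelled GN+Water minus GN+Captopril, over genes at least 1.5-fold higher than saline, and they were not tested because each is 1 array against 1. Over all 101 genes the median was 0.62, with 54 genes at least 1.5-fold higher on the array labelled GN+Water and 9 higher on GN+Captopril. Over all 8207 compared genes the median was -0.0034, and the median size of the difference without its sign was 0.147. The 9 antibody and J chain genes had a median of 2.01 and a range of 1.44 to 2.80. The 26 macrophage genes had a median of 0.70 and a range of 0.27 to 1.02, and the 5 complement genes a median of 0.76. The 11 interferon genes had a median of 0.07, and 6 of them lay within 0.2 of 0. The 8 presentation genes had a median of 0.12 and a range of -0.03 to 0.36. The 9 genes higher on GN+Captopril were Gbp6, Irgm2, Iigp1, Icam1, Irf8, Fabp4, Egr1, B2m and Gbp2. Since the array labelled GN+Water also differs in its sex-linked transcripts, captopril and sex cannot be told apart in these differences.

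**Figure D5:**
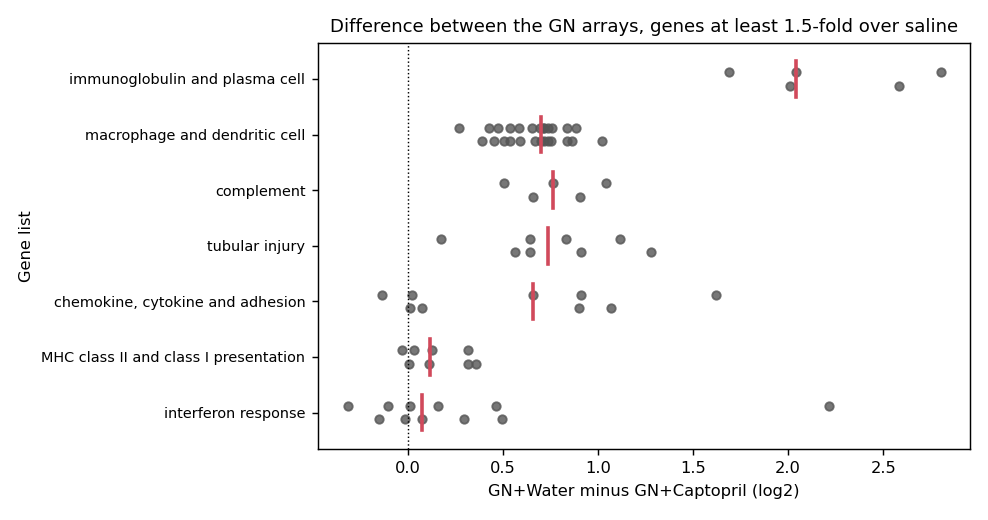
The plot of differences between the GN arrays gives, for each gene at least 1.5-fold higher than saline, the array labelled GN+Water minus GN+Captopril (log2, x axis) by gene list, with the list median as a red bar and a dotted line at 0. Antibody genes lie farthest to the right, from 1.69 to 2.80, macrophage genes between 0.27 and 1.02, and most interferon and presentation genes near 0, apart from Gbp3 at 2.22.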

How the data were processed

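Each of 4 arrays has deposited log2 values for 22690 probe sets and was hybridised with biotinylated cRNA made from 6 µg of total RNA per the labels. The submitters' processing notes name GCOS and RMA, with no role or version. How background was corrected and values normalised, and the probes' build, is not given in the sources used here. Array medians were 6.93 to 6.99, and values were used as deposited. Precision is limited by the number of arrays.

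Gene symbols came from GEO's platform annotation, updated by Entrez ID: 20393 had 1 symbol, 691 several and 1606 none. A gene took its probe set with the highest mean and was kept at or above the 40th percentile of all probe sets. Gaps were computed with pandas 2.3.3, and the fit of GN against saline used limma 3.58.1 in R 4.3.3 with Benjamini-Hochberg adjustment. The fit was tested on simulated data with the same spread for every gene. Spreads differ between the real genes, so that test does not show how the fit performs on these arrays. Where nothing says that arrays came from separate animals, the p-values of the fit measure only the spread between arrays.

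The members, gene lists and thresholds were chosen with earlier results of these data known. Named genes were the 20 largest gaps with GN higher and the 15 with GN lower, up to 4 members of each list, sex-linked genes, Ace, Agt and genes next to the 2-fold threshold. Other genes named were chosen after their values were seen. Coordinates and sequences are RefSeq's, GRCm38.p6. Alternatives were other filters, scalings, probe set choices, folds and models, and each array left out.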

Additional observations from a re-analysis of the deposited data

Results flagged for a closer look

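Androgen-responsive kidney genes differed by their median in the pair on water and hardly in the pair on captopril. Their median over 24 genes was -1.51 on the log2 scale for the array labelled GN+Water minus Saline+Water and 0.067 for GN+Captopril minus Saline+Captopril. Acsm3, a member of that list and an enzyme of medium-chain fatty acid activation, differed by -6.27 in the pair on water and by 0.074 in the pair on captopril. Xist differed by 3.76 in the pair on water and by -0.15 in the pair on captopril. The differences between pairs were not tested, since each pair is 1 array against 1, and none of these genes had arrays that parted by side.

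Large gaps outside the 8207 genes had GN higher. Of 1039 probe sets past the filter with no or several gene symbols, 13 were at least 2-fold higher on both GN arrays and none was lower by that fold, with a largest gap of 5.54. Of 4187 genes below the filter, 9 were at least 2-fold higher and none was lower by that fold, while by any size 332 were higher and 1605 lower. The 9 were Fpr2, with a gap of 2.39, Cd48, Ms4a6d, Cd44, Clec4n, Ms4a4b, Ms4a4d, Fgl2 and Pou2af1, a coactivator of B cells, with a gap of 1.01.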

How the results depend on the processing

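No paired analysis was possible because each group has 1 array and the labels carry no replicate numbers, but a limma fit with captopril as an additive term compares within water and within captopril: it called 0 genes, with a lowest adjusted p of 0.889 and 149 higher and 6 lower at an unadjusted p under 0.05. The 46 genes at least 2-fold higher became 28 with a filter at the 60th percentile, 17 at 3-fold and 224 by the difference of means, and ranged from 51 to 548 with 1 array left out (51 without Saline+Water, 548 without Saline+Captopril, 51 without the array labelled GN+Water, 175 without GN+Captopril). All 46 were among the genes counted with each array left out. The count of 0 genes 2-fold lower became 1 with the mean of a gene's probe sets, 35 by the difference of means, 2 in the captopril pair alone, an alternative chosen after seeing the data, and 0 to 129 with 1 array left out, the highest without Saline+Captopril. The 101 genes at 1.5-fold became 63 with the 60th percentile, 152 in the captopril pair and 115 to 1190 with 1 array left out, and the 1 lower gene became 2 under median centring, quantile normalisation or cyclic loess, 17 in the captopril pair and 3 to 672 with 1 array left out. At 2-fold in place of 1.5-fold, counts of higher genes were 14 for macrophage, 3 for complement, 1 for presentation, 4 for interferon, 5 for chemokine and 1 for injury genes, and 5 chemokine genes at 1.5-fold were in no other list. Limma called 0 genes in every setting at an adjusted p under 0.05, with lowest adjusted p from 0.133 (without Saline+Captopril) to 1 (without the array labelled GN+Water), and at an unadjusted p under 0.05 it gave 166 higher and 10 lower with all arrays, 64 and 1 without the array labelled GN+Water, 88 and 48 without Saline+Water, 197 and 94 without GN+Captopril, and 1418 and 1117 without Saline+Captopril. Of single-gene results under alternatives, 910 stayed on their side of 1.5-fold, 70 passed it, 4 lost it and none reversed. Alternatives with an array left out or with the captopril pair alone can only widen a gap. A gene whose arrays overlapped could not be counted as reversed. Much of this tally was therefore fixed in advance.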

Other observations

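Genes of sterol and fatty acid synthesis, a list drawn up after Srebf1 and Lss had been seen among the lower genes, were read on both sides. Of 31 measured genes, 8 were lower, 1 was higher and 22 overlapped, beside 14.7% lower and 16.1% higher of all genes. Under median centring and quantile normalisation 9 were lower and 1 higher, where 26.6% and 26.3% of all genes were lower. Fasn, which makes palmitate, was at 8.49 and 8.47 on the saline arrays (water first) and at 8.19 and 8.12 on the GN arrays, a gap of -0.29. Mvd, a decarboxylase of the mevalonate pathway, was at 8.84 and 8.50 against 7.86 and 8.37 (gap -0.13), and Srebf2, which drives cholesterol synthesis, at 8.68 and 8.40 against 8.35 and 8.31 (gap -0.05). Insig2, which holds the activators of this pathway in the endoplasmic reticulum, was the 1 higher gene, at 8.89 and 9.15 against 9.20 and 9.22. None of the 31 reached 1.5-fold as deposited, Srebf1 did so under the other scalings, and since the list was chosen on these values its counts support nothing further.

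Among the higher genes not described so far were Igf1, Cyp1b1, Il33 and Egr1. Igf1, insulin-like growth factor 1, was at 6.27 and 7.23 on the saline arrays and at 9.14 and 8.08 on the GN arrays (gap 0.84). Cyp1b1, a cytochrome P450 of stromal cells, was at 8.19 and 8.22 against 9.73 and 9.20 (gap 0.97). Of its 3 probe sets, 2 lay above saline on both GN arrays and 1 lay below. Il33, an alarm cytokine held in nuclei, was at 5.77 and 6.59 against 7.84 and 7.21 (gap 0.63). Egr1, an immediate early transcription factor, was at 6.48 and 6.81 against 7.63 and 7.67 (gap 0.81), and it was the 1 member of 23 heat shock and immediate early genes past 1.5-fold. All of these were chosen after their values were seen.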
